A study of Homo sapiens with 2 samples.

Results

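The microRNA precursors listed in the hTrmt13 CLIP-seq tables were examined. Every listed feature whose biotype was microRNA was taken, 3043 of 741078 features, and these entries were split by whether their span shared at least 1 base with a listed tRNA feature or with a feature of the mitochondrial chromosome. A tRNA feature was shared by 7 entries, a mitochondrial feature by 0, and neither by 3036. The entries spanned 41 to 195 bases, with a median of 86.

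The protein studied, hTrmt13 (TRMT13), is related to a yeast methyltransferase of tRNA, and the RNA recovered with it came from MDA-MB-231 cells, an established mesenchymal breast carcinoma line. In CLIP-seq a protein is isolated with an antibody together with its crosslinked RNA, and that RNA is sequenced. The labels give 1 group with 2 replicates and name no altered genotype or treatment of the cells, and all RNA had been dephosphorylated and treated with AlkB-type enzymes that remove base modifications. Read mates were counted in separate tables, called R1 and R2, with 27907799 and 20590398 counts in R1 and 11246823 and 8793089 in R2 (replicate 1, then replicate 2, in this order throughout). Whether the 2 replicates are separate cultures is not in the labels, and their SD may therefore be technical. Of control libraries 0 were analysed here, so a count describes what was recovered, not an enrichment, and more RNA in the cells cannot be told apart from more RNA bound. Of the marker genes of the line, VIM (vimentin, a mesenchymal filament) had 382 and 722 R1 counts, above CDH1 (E-cadherin, an epithelial adhesion protein) with 40 and 51, while the mesenchymal markers CD44, with 12 and 7, and SPARC, with 24 and 32, did not stand above CDH1. EPCAM, KRT8 and KRT18 (epithelial) lay between 20 and 49, the liver gene ALB was at 0 in both replicates, and the leukocyte, red cell and neuronal markers PTPRC, HBB and RBFOX3 lay between 5 and 54.

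A microRNA gene is transcribed into a primary transcript that folds into a hairpin. Drosha with DGCR8 cuts the hairpin out in the nucleus, exportin-5 carries it to the cytoplasm, and Dicer trims it to a short duplex of which 1 strand, the mature microRNA, is loaded into an Argonaute protein. The mature strand pairs with target mRNAs mainly through its seed (bases 2 to 8 from its 5′ end). Many hairpins lie in introns of protein-coding genes and are made from the host's transcript. Some database entries were later withdrawn or questioned because their sequence is also that of a tRNA, a ribosomal RNA or another abundant RNA. In mesenchymal breast carcinoma cells miR-21, miR-221 and miR-10b are known as abundant microRNAs, whereas the miR-200 family is typical of epithelial cells.

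The precursors with the most counts outside tRNA were MIR3648 and MIR3687, and the hairpin of MIR3687 is shown, from GENCODE release 29 (GRCh38), plus strand. It has no capitals because its mature sequence is not in the table used.
MIR3687: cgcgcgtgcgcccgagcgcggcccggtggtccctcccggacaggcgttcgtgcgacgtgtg

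The 61 bases of MIR3687 were 78.7% G or C, against a median of 50.9% over the 1879 microRNA hairpins of that release. MIR663B, the third in order of counts, had 70.4% over 115 bases. Of all those hairpins 97.8% had a lower G and C content than MIR3687 and 92.5% a lower one than MIR663B. Ribosomal DNA was not among the sequences compared here, so a match of MIR3648, MIR3687 or MIR663B to it was not tested.

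Mature strands of other precursors with counts outside tRNA, and of abundant breast carcinoma microRNAs for contrast, are given from RefSeq (GRCh38.p14), 5′ to 3′, with the seed in capitals. The RefSeq rows used here held 1240 of the 3043 entries by symbol and 0 of the 7 that share a tRNA feature. Not every RefSeq row was used, so an entry without a match here may still be in RefSeq.
hsa-miR-663b: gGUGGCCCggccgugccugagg
hsa-miR-1282: uCGUUUGCcuuuuucugcuu
hsa-miR-3940-5p: gUGGGUUGgggcgggcucug
hsa-miR-3620-3p: uCACCCUGcaucccgcacccag
hsa-miR-3064-5p: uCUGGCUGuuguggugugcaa
hsa-miR-4721: uGAGGGCUccaggugacggugg
hsa-miR-21-5p: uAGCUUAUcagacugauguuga
hsa-miR-221-3p: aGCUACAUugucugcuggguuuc
hsa-miR-25-3p: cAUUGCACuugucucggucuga
hsa-let-7f-5p: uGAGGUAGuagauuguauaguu

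Seeds were counted among the same RefSeq rows, so a seed may be held by more microRNAs than given here. The seeds of miR-663b, miR-1282, miR-3620-3p and miR-4721 were each held by 1 mature microRNA of these rows. The miR-3064-5p seed was held by 3 and the miR-3940-5p seed by 2, as was that of miR-3620-5p, the other arm of MIR3620. The let-7f seed was shared by 11 mature microRNAs, among them the let-7 family and miR-98-5p, the miR-25-3p seed by 6, including miR-92a-3p, and the miR-221-3p and miR-21-5p seeds by 2 each.

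The microRNA class as a whole was a small part of the counts, and most of it lay in the 7 entries that share a tRNA feature. All entries together had 187054 and 134906 R1 counts, 0.670% of the first library (exact Clopper-Pearson 95% interval 0.667 to 0.673%) and 0.655% of the second (0.652 to 0.659%), or 0.663% ± 0.0107 (SD, n = 2). The 7 entries took 176275 and 115813 of these, 94.2% and 85.8% of the class, or 0.597% ± 0.0489 (SD, n = 2) of the library. The other 3036 entries took 10779 and 19093, 0.0386% and 0.0927% of the library, or 0.0657% ± 0.0383 (SD, n = 2). Intervals cover counting error only, since PCR reads without molecular identifiers are not independent molecules. Totals are sums over features that overlap, so a read can be counted more than once, and percents are of counts, not of reads.

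The smaller group rested in turn on 3 entries. MIR3648, MIR3687 and MIR663B held 9850 and 17654 of its counts, 91.4% and 92.5%. The remaining 3033 entries held 929 and 1439 counts, 33.3 and 69.9 CPM (counts per 1000000 counts of the table). The 7 entries that share a tRNA feature were the larger part in R2 as well, at 92.1% and 78.7% of the class.

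**Figure D1:**
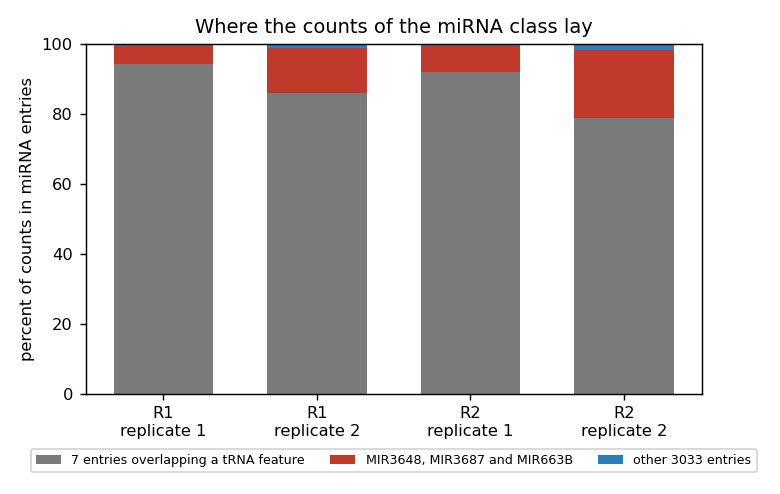
Stacked bars give the percent of all counts in microRNA entries (y axis) for each mate and replicate (x axis), divided into the 7 entries that share a tRNA feature, the 3 highest other entries and the other 3033. The 7 entries hold between 78.7% and 94.2% of the class in the 4 tables.

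The 7 entries carried the counts of the tRNAs they lie on. All lay on the strand of their tRNA. Of the 7, 4 shared a threonine tRNA, 2 an isoleucine tRNA and 1 an alanine tRNA.

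MIR3676 (ENSG00000266638.1, chr17:8090493-8090577 in hg19, plus strand) shared 59 bases with tRNA-Thr-AGT-1-1, missed the first 15 bases of that tRNA and ran 26 bases past its 3′ end. It had 68883 and 45745 R1 counts, and the tRNA had the same number in each replicate. In R2 it had 39812 and 23400 against 39812 and 23398 for the tRNA. No R1 count therefore distinguished the precursor from the tRNA, although the span reached beyond it.

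AC008738.2 (ENSG00000264355.1, chr19:33667978-33668061, plus strand) shared 59 bases with another copy of the same tRNA, tRNA-Thr-AGT-1-3. It had 61218 and 38833 R1 counts against 61216 and 38832 for the tRNA. AL121932.1 (ENSG00000272278.1, chr6:28615974-28616042, minus strand) shared 59 bases with tRNA-Thr-CGT-3-1 and had 26214 and 17220 R1 counts, as did the tRNA. These 3 threonine entries were the highest of the whole class in both replicates.

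The isoleucine entries held their tRNAs whole. TRNAI2 (ENSG00000238621.1, chr6:26988114-26988226, plus strand), an entry whose symbol is that of a tRNA gene, ran from 11 bases before tRNA-Ile-TAT-2-2 to 8 bases after it. It had 9389 and 6648 R1 counts, the same as that tRNA. TRNAI6 (ENSG00000238648.1, chr6:27599188-27599311, plus strand) ran from 12 bases before tRNA-Ile-TAT-2-3 to 18 after and had 9457 and 6485 R1 counts, 13 and 2 more than the tRNA. That excess was the largest of the 7 in each replicate.

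The alanine entry AL662890.3 (ENSG00000265764.1, chr6:28763749-28763812, minus strand) lay wholly in tRNA-Ala-AGC-1-1, with 64 of 64 bases shared. It had 1113 and 882 R1 counts, as did the tRNA. AC009994.2 (ENSG00000266566.1, chr17:62526893-62526975, minus strand) shared 58 bases with tRNA-Thr-AGT-7-1, the smallest overlap, and both had only 1 and 0 counts in R1 and 3 and 0 in R2. The nearest entry outside the rule was MIR4638, 98 bases from tRNA-Val-CAC-1-5. It had 0 counts in all 4 tables, while that tRNA had 244 and 319 R1 counts.

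**Figure D2:**
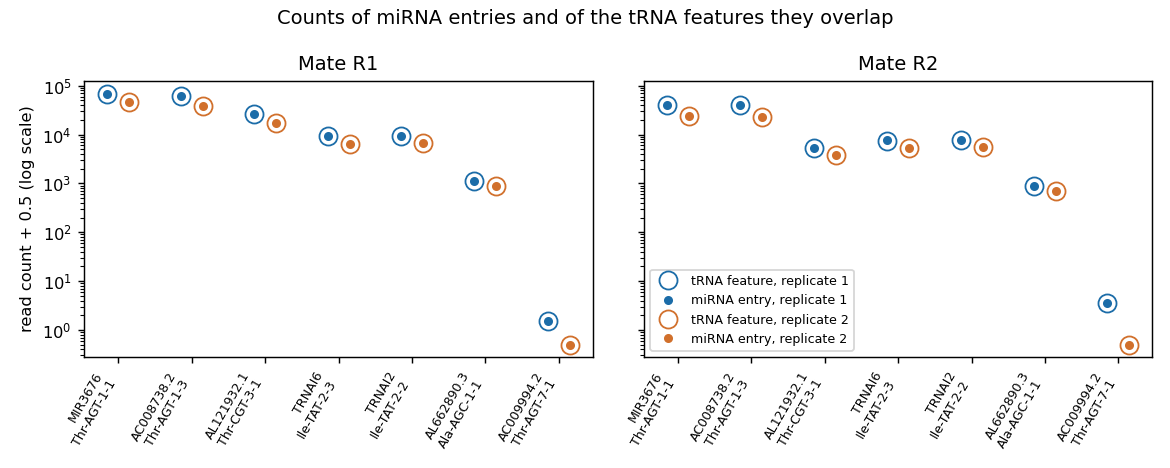
Read counts plus 0.5 on a log scale (y axis) are drawn for each entry and its tRNA (x axis) in mate R1 at left and mate R2 at right. Open circles are the tRNA feature and filled dots the entry, with 1 colour for each replicate, and every dot sits inside its circle.

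In order of CPM, MIR3676 stood at 2345 ± 174, AC008738.2 at 2040 ± 218, AL121932.1 at 888 ± 72.8, TRNAI2 at 330 ± 9.59, TRNAI6 at 327 ± 16.9 and AL662890.3 at 41.4 ± 2.09 (SD, n = 2 each). The lower MIR3676 value, 2222 CPM, was close to the higher AC008738.2 value, 2194 CPM. The values of TRNAI2 and TRNAI6 overlapped, and the other neighbours in this order did not. Copies of a tRNA share most of their sequence, so how reads were divided among copies limits each of these values.

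The entries also differed by mate. The R2 count was 19.9% and 21.8% of the R1 count for AL121932.1, against 40.3% and 42.7% for the libraries. For MIR3676 it was 57.8% and 51.2%, for AC008738.2 65.4% and 59.7%, and for AL662890.3 79.2% and 79.3%. TRNAI2, with 81.3% and 83.05%, and TRNAI6, with 79.8% and 82.8%, were the highest of those with a mean R1 count of at least 10.

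Outside tRNA, counts were concentrated in a pair of neighbouring entries on chromosome 21. MIR3648 (ENSG00000264462.1, chr21:9825832-9826011, plus strand) had 4542 and 8074 R1 counts, 277 ± 162 CPM (SD, n = 2). MIR3687 (ENSG00000264063.1, chr21:9826203-9826263, plus strand) begins after 191 intervening bases and had 4418 and 7909, 271 ± 160 CPM. Both were higher in replicate 2 than in replicate 1, and their ranges overlapped each other.

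Per kilobase of span the order was clear. MIR3687 had 72426 and 129656 R1 counts per kilobase and MIR3648 had 25233 and 44856, with no overlap between the replicates of either. The mates set the pair apart too. In R2 MIR3648 had 6463 and 12157 counts, 142% and 151% of its R1 counts, while MIR3687 had 1337 and 2825, 30.3% and 35.7%.

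MIR663B (ENSG00000221288.1, chr2:133014539-133014653, minus strand) lies in the span of ANKRD30BL and in an intron of a protein-coding gene in release 29. It had 890 and 1671 R1 counts, 56.5 ± 34.8 CPM (SD, n = 2), and 192 and 446 in R2. ANKRD30BL had 13148 and 13523 R1 counts, so the hairpin held 6.77% and 12.4% of them in 0.104% of the host's bases. The hairpin's share of the host's counts was thus higher in replicate 2, a comparison that does not depend on library size.

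Next came entries inside the actin genes. AC006483.1 (ENSG00000263900.1, chr7:5567734-5567817, minus strand) lies in ACTB, which encodes beta-actin, and had 136 and 225 R1 counts. It held 11.1% and 10.2% of the 1226 and 2216 counts of ACTB in 0.229% of its listed span. AC139149.1 (ENSG00000266077.1, chr17:79478052-79478135, minus strand) lies in ACTG1, which encodes gamma-actin, and had 135 and 179, or 9.77% and 6.93% of the host's counts in 0.605% of its bases. Neither entry is a microRNA gene in GENCODE release 29.

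Other entries without tRNA overlap had fewer than 70 R1 counts in either replicate. AC079949.1 had 49 and 66. AC026166.1, inside a processed pseudogene within SYN2, had 20 and 49 of the pseudogene's 41 and 99, and AC005000.2, inside the processed pseudogene RP1-241P17.3, had 16 and 44 of its 163 and 288. D86994.1 had 28 and 22 of the 31 and 25 counts of IGLV2-23, an immunoglobulin light chain variable segment, with more counts in replicate 1, as had MIR3064 and MIR4461 (both described further on).

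Annotated microRNA genes followed at similar levels. MIR1282, in an intron of a protein-coding gene on its own strand (RP11-296A16.1 in the tables) and opposite to SERF2, had 29 and 31 R1 counts, MIR3940 in KHSRP (a splicing and RNA decay factor) 15 and 32, and MIR636 in SRSF2 (a splicing factor) 15 and 27. MIR3620 in ARF1 (a small GTPase of vesicle traffic) had 15 and 21, MIR3064 in DDX5 (an RNA helicase) 19 and 17, and MIR3198-2 in CBX5 (heterochromatin protein HP1 alpha) 8 and 18. These counts are small, and the replicates of neighbours in this order overlapped. RP11-296A16.1 had 102 and 194 R1 counts and SERF2, on the opposite strand, 97 and 192. Use of strand in counting is not given, so reads at MIR1282 may come from either gene, which was not tested.

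Some hairpins inside genes had more counts in R2 than in R1, although the R2 libraries were smaller. MIR4721 in TUFM, the mitochondrial elongation factor Tu, had 3 and 9 R1 counts but 22 and 38 in R2. MIR3620 had 18 and 35 in R2, MIR3064 18 and 36, MIR3940 15 and 37, and MIR636 18 and 40. In replicate 2 the R2 count exceeded the R1 count for each of these 5. In replicate 1 it did so for MIR4721, MIR3620 and MIR636, but was equal for MIR3940 and lower for MIR3064. All but MIR3940 were among the 10 highest in R2, a choice that favours such an excess.

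**Figure D3:**
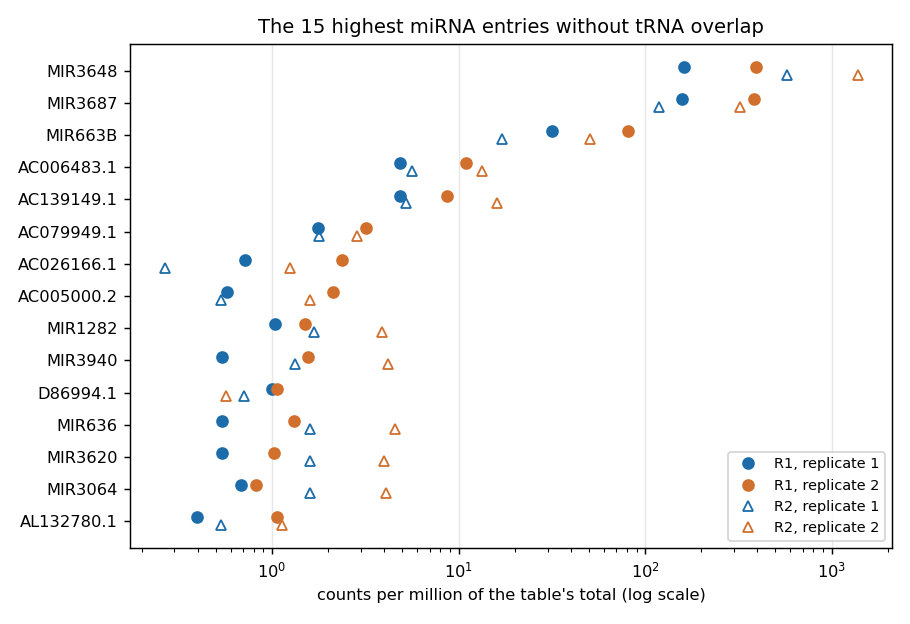
CPM of each table (x axis, log scale) are drawn for the 15 entries without tRNA overlap that had the highest R1 mean (y axis), with filled circles for R1, open triangles for R2 and 1 colour for each replicate. MIR3648 and MIR3687 stand above 158 CPM in R1 in both replicates and AL132780.1, the lowest shown, at 0.394 and 1.07.

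Most precursors had no counts. Of the 3043 entries, 250 had an R1 count in replicate 1 and 331 in replicate 2, and 2426 were at 0 in all 4 tables. Among the 3036 without tRNA overlap, 243 and 325 had a count, 439 in either replicate and 129 in both. In replicate 1 only 1 read was counted for 139 of them, and in replicate 2 for 197. A count of 0 allows up to 0.107 CPM in replicate 1 and 0.146 in replicate 2 (3 counts of the total).

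A mean R1 count of at least 10 was reached by 27 entries, 6 that share a tRNA feature and 21 that do not. The latter are 0.692% of their group. Among all listed features 2.53% reached that mean, and among features other than piRNA 30.5% did. At least 1 R1 count in either replicate was found for 14.7% of the microRNA entries, against 64.2% of features other than piRNA. Precursor spans are much shorter than most genes, and these shares were not adjusted for length.

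Position in release 29 went with how often an entry without tRNA overlap had a count. The match was made by gene ID (1172 entries) or symbol (173), 1345 in all, and the other 1691 are not microRNA genes there. Of the entries in a coding exon on the same strand, 33 of 44 (75%) had an R1 count in either replicate, and of those in a UTR exon 31 of 54 (57.4%). In introns of protein-coding genes it was 120 of 577 (20.8%), on the opposite strand of a gene 31 of 171 (18.1%), and in introns of long non-coding RNA genes 19 of 139 (13.7%). In exons of long non-coding RNA genes it was 2 of 26 (7.69%), so exons stood above introns for protein-coding genes but not for these. Outside protein-coding and long non-coding RNA genes 22 of 334 (6.59%) had a count, and MIR3648 and MIR3687 belong there. Of those not in release 29, 181 of 1691 (10.7%) had one. Strand here is that of the annotation, and whether reads were counted by strand is not given.

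**Figure D4:**
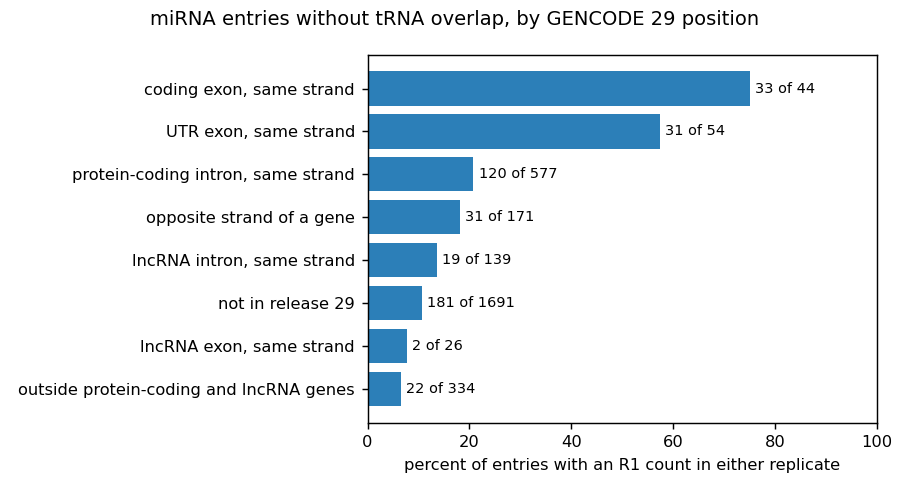
Bars give the percent of entries without tRNA overlap that had an R1 count in either replicate (x axis, from 0 to 100%), by their position in GENCODE release 29 (y axis), with the numbers beside each bar. Coding exons (75%) and UTR exons (57.4%) stand above introns of protein-coding genes (20.8%) and positions outside genes (6.59%).

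Counts inside host genes were then set against length. If a host's counts lay evenly along its listed span, each entry would hold the share of them that it holds of the bases. Only entries in 1 protein-coding host on the same strand that shares no tRNA feature were taken. The 95 entries in exons held 2.53 and 3.18 times that share in sum. The 555 in introns of protein-coding genes held 8.80 and 10.9 times, with MIR663B and its host ANKRD30BL, and the 554 without MIR663B 1.59 and 1.31 times, so whether introns lie above or below exons rests on that 1 entry. The 404 in protein-coding hosts but not in release 29 held 4.69 and 5.20 times, and without the actin pair, which was left out after its values were seen, 1.73 and 2.17 times. Exons take up a small part of most genes, so the even share is a yardstick of length and not a level to be met.

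Well-known microRNAs had few or no counts. Of the let-7 family 12 of 12 precursors were listed, 9 of them at 0 in all 4 tables, and MIRLET7F1 had 1 and 1 R1 counts, MIRLET7D 0 and 2 and MIRLET7I 1 and 0. Let-7 microRNAs repress growth genes and are widely expressed. Of the miR-17-92 cluster and its paralogues, which promote proliferation, 9 of 15 were listed. All 9 belong to the paralogues, so the miR-17-92 cluster itself was not examined. Of the 9, 7 were at 0 in all tables, MIR25 was at 1 and 3 and MIR93 at 2 and 0.

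Of 22 microRNAs known from mesenchymal or aggressive carcinoma cells, 16 were listed and 14 of these were at 0 in all 4 tables. MIR21, a widely described oncogenic microRNA, was among those at 0, MIR221 had 1 and 2 R1 counts and MIR10B 1 and 0. All 6 listed epithelial microRNAs, the miR-200 family, which keeps cells epithelial, and MIR203, were also at 0 in all tables. So were all 10 listed microRNAs of other tissues. At this depth the microRNAs of the cell line and those of other tissues therefore could not be distinguished by their counts. The names of these lists that did not match an entry were not analysed here.

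Entries whose sequences are known to resemble other abundant RNAs were gathered in a further list. Of 34 names 17 were listed and 11 had an R1 count, MIR3676, MIR3648, MIR3687 and MIR663B among them. MIR720 and MIR1280, which resemble tRNAs, had only 0 and 3 and 0 and 1 R1 counts, MIR1260B 2 and 1, MIR3656 0 and 2, MIR4484 0 and 1 and MIR4284 1 and 0. The high counts of the list belonged to the 4 named first, and its median was 0.0243 CPM.

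MIR4461 (ENSG00000263963.1, chr5:134263729-134263802, plus strand) lies on chromosome 5 in PCBD2 but has a mitochondrial sequence. It had 15 and 12 R1 counts and 7 and 11 in R2, while PCBD2 had 26051 and 19682 R1 counts. It also lies opposite to CTB-36O1.4, a processed pseudogene of 297 bases with 97 and 80 R1 counts. Over 72 bases the MIR4461 hairpin is identical at 69 (95.8%) to the strand opposite to MT-ND4L, a subunit of respiratory complex I. Both are shown from GENCODE release 29, MT-ND4L as the opposite strand, with the 3 differing bases in capitals.
MIR4461: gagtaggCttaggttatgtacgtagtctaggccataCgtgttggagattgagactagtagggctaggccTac
MT-ND4L: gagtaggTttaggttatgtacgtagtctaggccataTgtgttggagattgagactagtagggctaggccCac

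Only the 1345 entries that are microRNA genes in release 29 were searched for such matches, and the 1698 others were not. The other searched entries that matched a mitochondrial transcript did so over short stretches, 20.7% to 29.6% of their hairpins, and had at most 2 R1 counts.

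The replicates divided the groups differently. The counts of each feature in both R1 libraries were compared by an exact two-sided binomial test against the ratio of TMM-scaled library sizes, with Benjamini-Hochberg adjustment over the 18723 features that averaged at least 10 counts. The test sets 1 library against 1 other, not conditions, and covers counting error only. Of all features tested 8.8% passed at an adjusted p of 0.05, 2.29% as higher and 6.52% as lower in replicate 2.

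Of the entries that share a tRNA feature, 6 were tested and 6 were lower in replicate 2, and the median of their log2 ratios, replicate 2 over replicate 1, was -1.22 (range -1.31 to -0.99). The tRNA features themselves had a median of -1.10, with 428 of 473 lower, and each entry differed from its own tRNA by at most 13 counts. The smallest shift was that of AL662890.3, -0.99 (adjusted p = 8.02e-51, exact binomial test). With scaling to library totals it was 0.10. Of the 6 entries 5 were then lower, with a median of -0.13 over the 6, where 1.44% of all features were lower. Among the 473 tRNA features 177 were then lower and 154 higher, with a median of -0.01.

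Of the 21 tested entries without tRNA overlap, 3 were higher in replicate 2 and 0 lower, and at an unadjusted p of 0.05 the exact binomial test gave 3 higher and 1 lower. MIR3648 had a log2 ratio of 0.18 (adjusted p = 1.05e-09, exact binomial test), MIR3687 of 0.19 (adjusted p = 1.34e-10) and MIR663B of 0.26 (adjusted p = 0.000382). The median of the 21 was 0.06, against 0.01 for protein-coding features. The single entry past the unadjusted threshold as lower was D86994.1, at -0.99 (adjusted p = 0.144, exact binomial test).

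Scaling to library totals adds 1.09 to every log2 ratio. All 21 entries then had more CPM in replicate 2, 13 of them past the threshold, but of all features tested 82.7% passed, 81.3% as higher. The difference between the groups of entries does not depend on this constant. The medians kept their signs under both scalings, -1.22 and -0.13 with tRNA overlap and 0.06 and 1.15 without, while their distance from 0 changed.

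**Figure D5:**
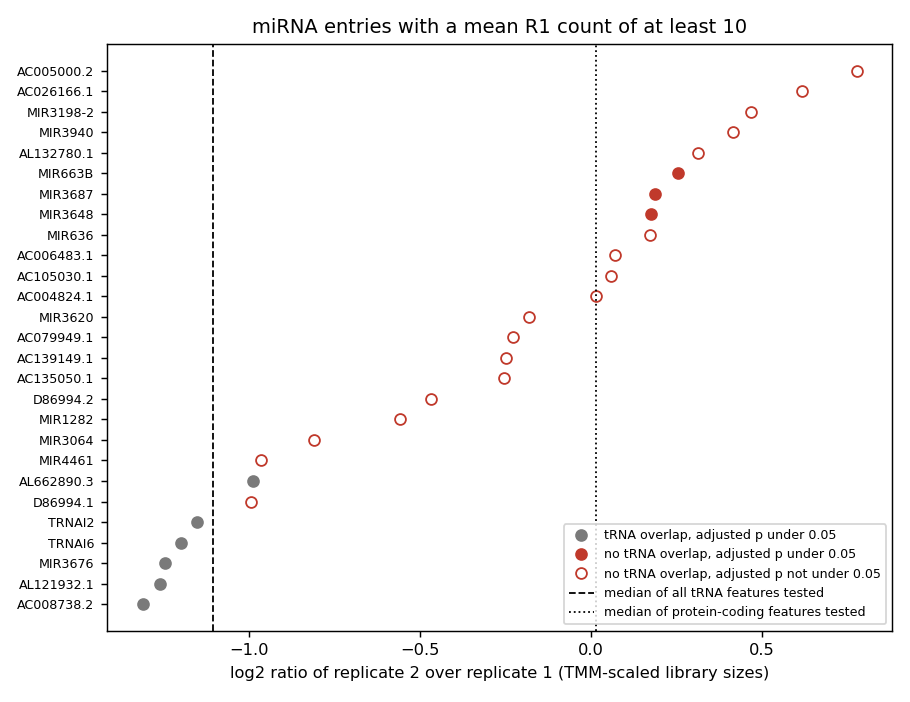
The log2 ratio of replicate 2 over replicate 1 after TMM scaling (x axis) is drawn for the 27 entries with a mean R1 count of at least 10 (y axis), filled where the adjusted p was under 0.05. The 6 entries that share a tRNA feature lie near the dashed line, the median of all tRNA features (-1.10), and MIR3648, MIR3687 and MIR663B lie to the right of the dotted line, the median of protein-coding features (0.01), while with library totals every point moves right by 1.09.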

How the data were processed

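RNA recovered with hTrmt13 by CLIP-seq from MDA-MB-231 cells was analysed, 1 group with 2 replicates, grouped by the labels. The authors deposited unscaled read counts, whole numbers for every listed feature, with R1 and R2 in separate tables. The submitters' processing notes name Bowtie2 2.3.5.1, bedtools 2.24.0 and the hg19 build. How reads matching several places were handled, the alignment options and any use of strand: not given in the sources used here. Of 741091 lines, 13 repeats were dropped. tRNA and piRNA starts were read as 0-based and raised by 1.

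R1 was the main table. CPM and percent are of the table's total, with exact Clopper-Pearson 95% intervals. The split between replicates was tested as described beside it, with TMM factors from edgeR 4.0.16 (R 4.3.3). DESeq2 1.42.0 size factors were an alternative. The test was also run on simulated counts that held counting error only, as it assumes. That run cannot show how the test handles other variation between libraries. Log2 ratios add 0.5 to each count. Positions in GENCODE 29 (GRCh38) were matched by gene ID or symbol, never by coordinates. Mitochondrial matches were found with blastn 2.17.0 (expect 0.001), for microRNA hairpins of GENCODE 29 only. Scripts ran in Python 3.11.15 (scipy 1.17.1, pandas 2.3.3, numpy 2.4.6, matplotlib 3.10.9).

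The entries and lists were chosen with earlier results of these data known. The choice of entries to name covered every one that shares a tRNA feature, the 15 others highest in R1 and the 10 others highest in R2. It also covered the 5 with the largest log2 ratio in each direction and the 3 highest of each list. Last, it covered members with a count of the list of entries like other abundant RNAs. MIR4638, the nearest entry outside the rule, MIR21, the microRNA machinery genes other than TNRC6B, AGO2 and TNRC6A, and the entries counted as partial mitochondrial matches lie outside it and were added once their values were known. The sequence of 1 precursor is not reported here.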

Additional observations from a re-analysis of the deposited data

How the results depend on the processing

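Alternative settings moved the size of the shares but left the 7 entries that share a tRNA feature the larger part in each table. Of 60 comparison values computed under other settings, 42 were unchanged (within 1 SD of the replicates, or 1.5 times for counts of entries) and 18 moved, and the cause was not tested except where the setting removes counts. Leaving out either library cannot move a mean of 2 by 1 SD, so those values are no sign of stability. Counting overlaps on the same strand, within 100 bases or over 50% of the span, or leaving out tRNA lookalikes, gave the same shares. These rules kept the same 7 entries or added only MIR4638, which had 0 counts, so these values are no sign of stability either. The total without tRNA features was not used for all entries or the 7, since it drops the 7.

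The share of all entries was 0.936% in R2, 0.743% for the sum of mates and 1.16% of the total without the 10 highest features. That of the 7 was 0.802%, 0.657% and 1.04%. That of the other entries was 0.134% in R2, 0.112% without the 10 highest features, 0.487% of the total without tRNA features and features that overlap one, and 0.00516% without MIR3648, MIR3687 and MIR663B, the last added after the data were seen. With either replicate left out the shares ranged from 0.655 to 0.670%, 0.562 to 0.632% and 0.0386 to 0.0927%. Entries with a mean count of at least 10 numbered 44 (38 without tRNA overlap) for the sum of mates, and 25 to 32 (19 to 26) with either replicate left out. At a mean of at least 1 there were 202 (196), and at 30 there were 15 (9). With library totals 15491 features passed the split test, 13 entries were higher, and AL662890.3 turned to 0.10. Of 228 CPM values of the 38 named entries, 43 moved up and 4 down.

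Depth limits the 2426 entries at 0, and entries with single counts cannot be ranked. No paired analysis was possible because only 1 group exists.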

Other observations

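The genes of the proteins that make and use microRNAs had counts. Of 14 genes listed for this machinery, 13 had a mean R1 count of at least 10, as had 13220 of all 20298 protein-coding features, and the median over the list was 10.3 CPM. AGO2, the Argonaute that can cut its targets, had 359 and 590 R1 counts, 20.8 ± 11.2 CPM (SD, n = 2). DROSHA and DGCR8, which cut the hairpin from the primary transcript, had 202 and 357 and 128 and 265. XPO5, the export receptor, had 212 and 396, and DICER1 had 205 and 341. TNRC6B, a scaffold that links Argonaute to mRNA decay, was the highest with 495 and 646, 24.6 ± 9.64 CPM, and its relative TNRC6A had 283 and 408. LIN28B, which blocks the maturation of let-7, had 201 and 265, while its relative LIN28A had 1 and 0. These are counts over whole gene spans, far longer than a hairpin, and the levels are not compared with those of the precursors.

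Between replicates 0 of the 13 tested genes were higher and 1 was lower (TNRC6B, log2 ratio -0.27, adjusted p = 0.0260, exact binomial test with TMM-scaled sizes). At an unadjusted p of 0.05 the exact binomial test gave 2 higher and 2 lower.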
